A study of Bos taurus with 8 samples.

Results

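The plasma proteins made by fetal liver and yolk sac were followed through 10 genes: ALB, AFP and TTR, which encode carriers, AHSG, the fibrinogen chain genes FGA, FGB and FGG, and the protease inhibitor genes SERPINC1, SERPINA1 and A2M. They are 10 of the 16911 genes named on the array and were found as every non-control probe whose accession names one of them, which gave 40 of 51282 probes. Each of the 40 was matched by accession. The study hybridised RNA of 8 samples to 1-colour Agilent cattle arrays, 4 labelled pregnant and 4 labelled non-pregnant. The labels name all 8 as female fetal cotyledon, the part of the ruminant placenta that the fetus contributes. The non-pregnant-labelled samples are described as before pregnancy and the others as after it, with no stage, age or treatment given. The organism field names cattle, whereas the protocol text speaks of gravid buffalo uteri collected at slaughter, so cattle probes may have met buffalo RNA.

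All 11 tested trophoblast markers were lower on the pregnant-labelled arrays, each read by its tested probe of highest mean signal. For SSLP1, 2 of the 3 tested probes were called higher there instead. The mean level of the 11 markers was 4.47 to 5.31 on the non-pregnant-labelled arrays and -4.09 to -2.74 on the pregnant-labelled ones, in log2 units relative to the array's 75th percentile. Among them, PAG2, a pregnancy-associated glycoprotein, was lower by a log2 difference of -11.04, detected on 3 pregnant-labelled arrays, and CSH2, a placental lactogen, by one of -8.39. Of 9 tested endometrial markers, 7 were higher and 1 lower on the pregnant-labelled arrays, among them PGR, the progesterone receptor, with a difference of 8.13 and detection on 1 non-pregnant-labelled array. The fetal globin gene HBG differed by -11.31, and 8 of 9 tested erythroid markers were lower. The trophoblast markers and HBG thus go against the group labels, whereas the order of the endometrial markers does not by itself. The groups are named below by their label alone, as pregnant-labelled and non-pregnant-labelled arrays. The arrays sat on 1 slide with 1 scan, with the groups in different slide rows, so slide row and group cannot be told apart. Within a group, arrays correlated at 0.943 or above over all tested probes, and between groups at 0.736 to 0.783. The labels do not tie the 4 samples of a group to different animals, and p-values then reflect only the spread between these samples, which may be technical. In such bulk samples, fewer cells of a type and less RNA per cell cannot be told apart.

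Plasma proteins enter the fetal circulation first from the yolk sac endoderm and then from hepatocytes. Albumin carries fatty acids and hormones, alpha-fetoprotein is its fetal relative encoded beside it, and transthyretin carries thyroid hormone and retinol-binding protein. The fibrinogen chains are encoded by 3 neighbouring genes, are assembled together into 1 protein, and form the clot after cleavage by thrombin. Antithrombin, encoded by SERPINC1, inhibits thrombin with heparan sulfate as cofactor, alpha-1-antitrypsin, encoded by SERPINA1, inhibits neutrophil elastase, and alpha-2-macroglobulin, encoded by A2M, traps many proteases.

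Each probe is a 60-base stretch of the mRNA, and its coordinates are those of the scanner files on the build Btau_3.1. The 40 probes had between 35% and 55% G or C, and 13 of them span more than 60 bases of genome, so that their alignment is split over more than 1 block. The 4 albumin probes are shown because they gave different levels of detection, and because overlapping probes of ALB differ at 1 base, written in capitals. All are on the plus strand and run 5′ to 3′.
ALB A_73_P478507 at chr6:91471189-91472822: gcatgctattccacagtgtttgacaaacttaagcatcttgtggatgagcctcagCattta
ALB A_73_P440831 at chr6:91471196-91472829: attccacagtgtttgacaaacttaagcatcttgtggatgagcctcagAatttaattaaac
ALB A_73_P329727 at chr6:91472808-91472867: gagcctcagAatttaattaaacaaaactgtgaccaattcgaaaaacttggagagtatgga
ALB A_73_P036711 at chr6:91474841-91474900: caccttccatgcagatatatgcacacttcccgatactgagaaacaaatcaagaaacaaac
The first and second of these share 53 bases with 1 mismatch, A48C, with the base of A_73_P440831 first and the position counted from 1 at that probe's 5′ end. A_73_P440831 and A_73_P329727 share 22 bases with no mismatch, and A_73_P036711 overlaps none of the others. The 3 overlapping probes are therefore not independent measurements of albumin.

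The next probes are shown because the fall of fibrinogen gamma rests on the only FGG probe, the antithrombin and alpha-2-macroglobulin genes were each read by several probes, and the alpha-fetoprotein probe is the one nearest that gene's 3′ end. The SERPINC1 probe is on the minus strand and the others on the plus strand. The capitals in the AFP probe mark the stop codon at its end.
FGG A_73_P032566 at chr17:3074131-3074190: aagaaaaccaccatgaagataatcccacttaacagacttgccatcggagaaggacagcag
SERPINC1 A_73_P252601 at chr16:52506513-52506572: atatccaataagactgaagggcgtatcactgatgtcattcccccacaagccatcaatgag
A2M A_73_P389331 at chr5:108284705-108284914: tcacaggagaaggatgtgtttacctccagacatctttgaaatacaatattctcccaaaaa
AFP A_73_113968 at chr6:91506588-91508194: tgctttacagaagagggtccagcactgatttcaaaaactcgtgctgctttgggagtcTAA
In the file coordinates the AFP probe's 60 bases span 1607 bases of genome and those of the A2M probe span 210. Which exons or untranslated regions the probes read is not stated in the labels or files used here.

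Detection differed sharply among the 10 genes. A probe was called detected on an array where at least 0.5 of its spots carried the scanner's flag for being well above background. Of the 40 probes, 5 were well above background on all 8 arrays, those of ALB, TTR and FGB with 1 each and A2M with 2, and 17 were on none. The group comparison took probes detected on 4 or more of the 8 arrays, which 10 probes of 6 genes were. The other 4 genes, AFP, AHSG, FGA and SERPINA1, had no tested probe. All values below are log2 of the spot intensity relative to the array's 75th percentile, and differences are pregnant-labelled minus non-pregnant-labelled arrays. Levels of different probes are not comparable, since each probe binds with its own strength.

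**Figure D1:**
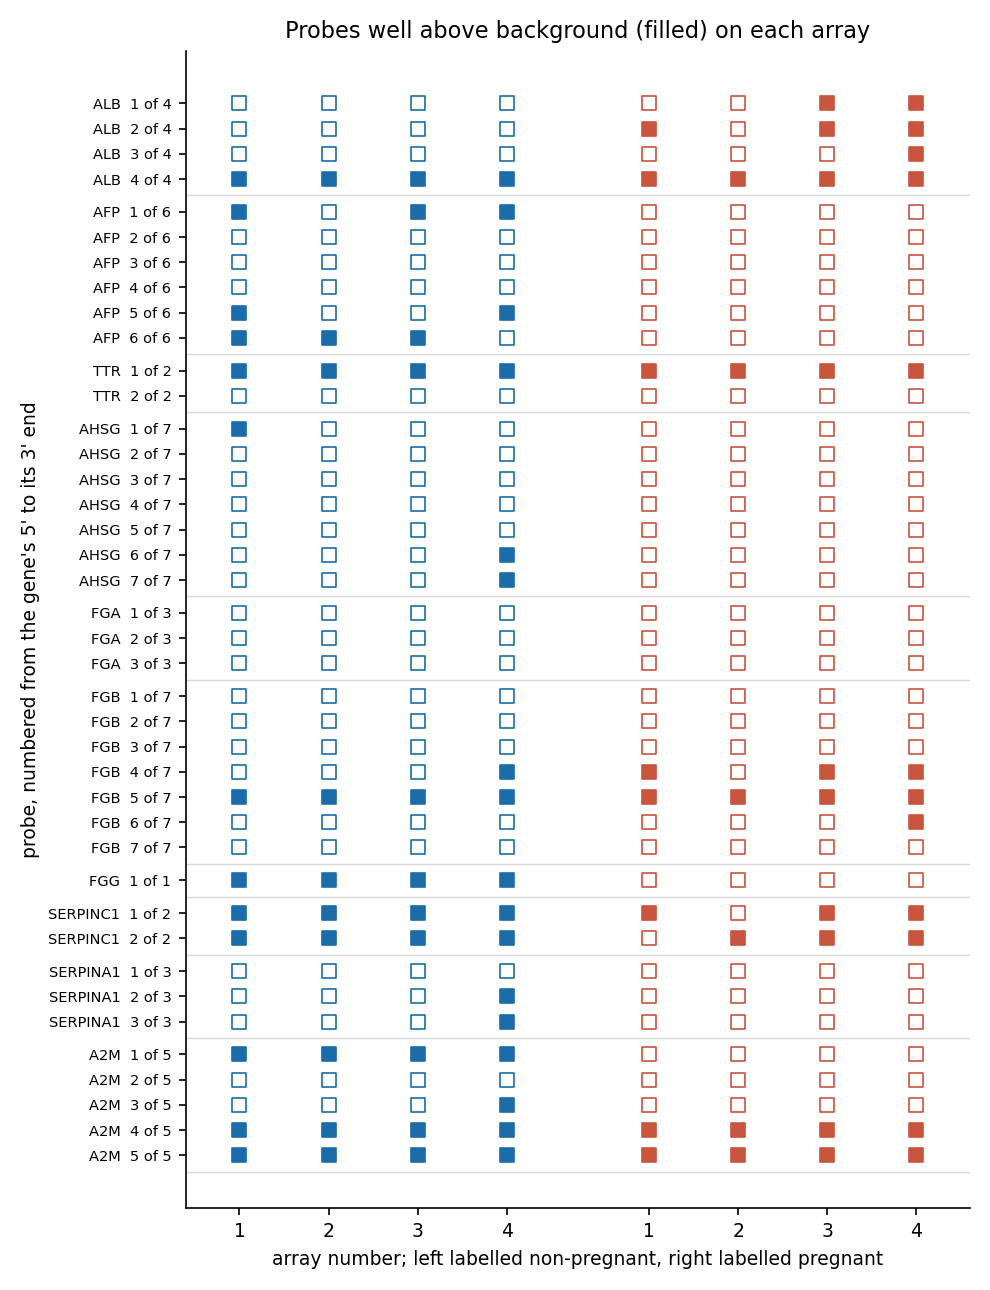
Each row is 1 of the 40 probes, numbered from the 5′ to the 3′ end of its gene, and each column is an array, non-pregnant labels on the left in blue and pregnant labels on the right in red. Filled squares mark arrays on which the probe was well above background. FGA has no filled square, FGG is filled only on the 4 arrays labelled non-pregnant, and ALB, TTR, FGB and A2M have the 5 rows filled throughout.

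Of the 6 genes tested, ALB, FGB and TTR were higher and FGG, SERPINC1 and A2M lower on the pregnant-labelled arrays (limma, Benjamini-Hochberg adjusted over all 34627 tested probes, threshold 0.05). Among all 13197 genes tested, 62.8% were called, 29.9% higher and 32.9% lower, so the count of calls sits on a background in which most genes differed. FGG, and 1 of the 3 tested A2M probes, passed the detection filter only through the non-pregnant-labelled arrays, where they are high, so their calls follow in part from the filter and support nothing by their number. The median of the 6 differences was -0.71, against -0.03 over all genes tested. Of the 10 tested probes, 9 were called, against 59.4% of all tested probes. The groups did not overlap in any of the 6 probes that represent these genes, which held for 60.3% of all genes tested.

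**Figure D2:**
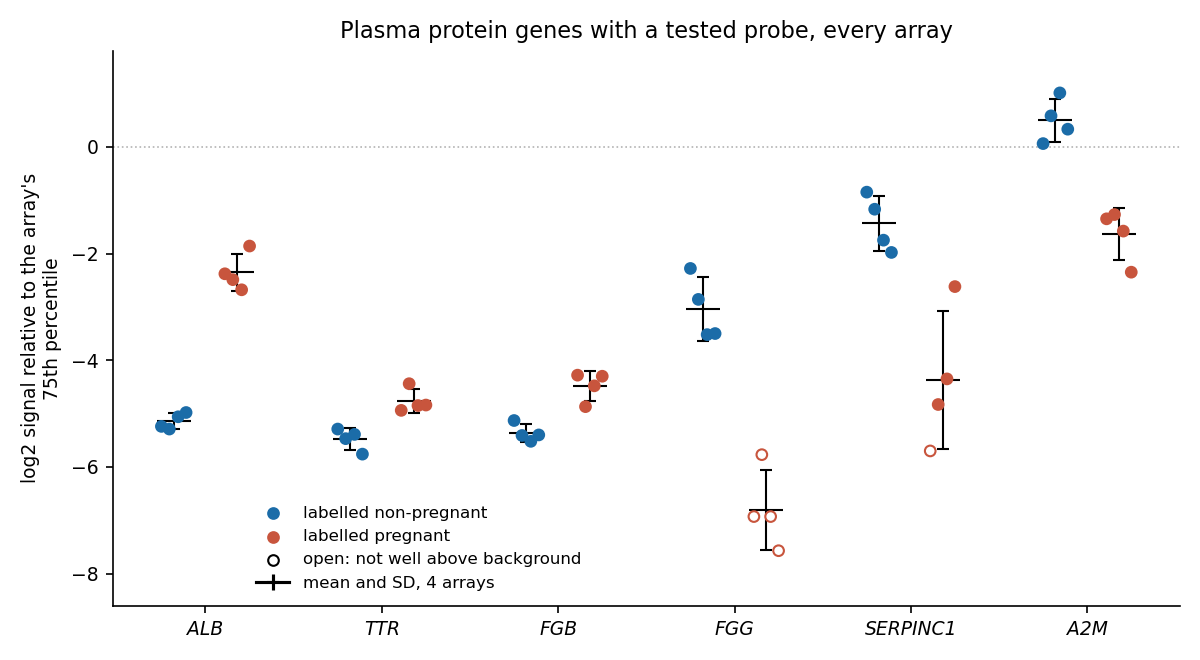
The vertical axis gives the scaled log2 signal (array's 75th percentile set to 0) for the probe representing each of the 6 tested genes, on the 4 arrays labelled non-pregnant in blue and the 4 labelled pregnant in red. Open circles are arrays on which the probe was not well above background, and bars are the mean and SD. ALB, TTR and FGB sit higher in red, and FGG, SERPINC1 and A2M higher in blue, with no overlap within a gene. Heights of different genes are not comparable.

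Albumin, the main plasma protein of adult blood, had the largest of the 3 differences towards the pregnant-labelled arrays. Its probe A_73_P036711 read -5.24, -5.29, -5.06 and -4.98 on the non-pregnant-labelled arrays and -2.38, -2.49, -2.68 and -1.86 on the pregnant-labelled ones. The 2 sets of values are far apart, and the highest value was on array 4 of the pregnant-labelled ones. Means ± SD over 4 arrays were -5.14 ± 0.14 and -2.35 ± 0.35, a difference of 2.79 (SE 0.21, limma adjusted p = 8.47e-06), or 6.91-fold. With the normexp background correction the difference was 1.77. The other 3 albumin probes printed above were well above background on no array labelled non-pregnant, and on 2, 3 and 1 of the pregnant-labelled ones, so none was tested. A bound sets the mean of the brighter arrays against the lowest signal that counts as detected. Reckoned in this way, A_73_P440831, detected on 3, was 5.16-fold higher on the pregnant-labelled arrays. A_73_P478507, which overlaps it and differs at 1 base, was 3.98-fold higher, and A_73_P329727 was 2.13-fold higher. These 3 folds are not lower bounds, since pregnant-labelled arrays without the flag entered the mean at their own signal. All 4 probes had groups that did not overlap, with the pregnant-labelled arrays higher. Groups did not overlap for 60.3% of all genes tested, in either direction. The TTR probe A_73_P459931, well above background on no array, also had pregnant-labelled arrays higher without overlap, by 0.83. The count of albumin probes without overlap therefore adds little.

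Alpha-fetoprotein, the fetal relative of albumin, had 6 probes and no tested one. Its 3′ probe A_73_113968, shown above, read -5.30, -6.12, -5.99 and -6.55 on the non-pregnant-labelled arrays and -7.42, -7.30, -7.80 and -7.14 on the pregnant-labelled ones. It was well above background on 3 of the first and none of the second. Reckoned as for albumin, it was 1.38-fold lower on the pregnant-labelled arrays. The neighbouring probe A_73_P359421, detected on 2 arrays labelled non-pregnant, was 1.26-fold lower, although its groups overlapped (-6.62 to -5.71 against -7.28 to -6.40). Neither fold is a lower bound, since non-pregnant-labelled arrays without the flag entered the mean. The 5′ probe A_73_P512978 was detected on 3 arrays labelled non-pregnant, yet its group means were -6.17 and -5.87, with no order between the groups. The remaining 3 probes were well above background on no array. AFP, next to ALB on chromosome 6, thus carried the detection flag on non-pregnant-labelled arrays alone, and the 3 dim albumin probes on pregnant-labelled arrays alone. The lowest detected signal differed by group, at -7.58 to -6.97 on the non-pregnant-labelled arrays and -6.81 to -6.06 on the pregnant-labelled ones. A_73_P512978 read -5.21 and -5.37 on pregnant-labelled arrays 1 and 2, above all its non-pregnant-labelled values, without a flag. The flags alone therefore do not give the order of AFP levels.

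Transthyretin, the thyroid hormone carrier, read -5.29, -5.47, -5.39 and -5.76 on the non-pregnant-labelled arrays and -4.94, -4.44, -4.85 and -4.84 on the pregnant-labelled ones. The groups did not overlap, although the gap between them was small. Means ± SD over 4 arrays were -5.48 ± 0.20 and -4.77 ± 0.22, a difference of 0.71 (SE 0.19, limma adjusted p = 0.0113). This size is near that of dim probes in general, since the 10846 probes well above background on no array had a median difference of 0.77 (quartiles 0.50 and 0.86). The 75th percentile used for scaling was itself lower on the pregnant-labelled arrays, at 9.99 ± 0.31 against 10.47 ± 0.29 (log2 intensity, SD, n = 4 each, difference -0.48, two-sided exact permutation test p = 0.0857, where 0.0286 is the smallest possible). With each array's median subtracted instead, the transthyretin difference was 0.32 (adjusted p = 0.293), with quantile normalization it was 0.21 (0.436), and with no scaling 0.23 (0.466). A second TTR probe shares 29 bases with this one and was well above background on no array.

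Fetuin-A, the mineral-binding protein encoded by AHSG, was read by 7 probes, as many as FGB. None was detected on more than 1 array, and the 3 that were detected were so on a single array labelled non-pregnant each. A_73_P177797, the 5′ probe, was well above background on array 1 alone, at -5.70, with -6.77, -7.54 and -8.71 on the other arrays of that label. The 4 arrays labelled pregnant read -7.36, -7.30, -7.81 and -8.02 there. No group difference could be read for AHSG.

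The fibrinogen chain genes gave unlike readings, and whether all the chains moved together cannot be read, since FGA was not detected. Fibrinogen gamma, encoded by FGG, read -2.28, -2.86, -3.52 and -3.50 on the non-pregnant-labelled arrays and -6.93, -5.77, -6.93 and -7.57 on the pregnant-labelled ones. It was well above background on all 4 of the first and none of the second. Means ± SD over 4 arrays were -3.04 ± 0.59 and -6.80 ± 0.75, a level at least 10.1-fold lower on the pregnant-labelled arrays. The fitted difference was -3.76 (SE 0.42, limma adjusted p = 7.59e-05), for a probe that the detection filter let in through its brighter group. Fitted among all probes with no such filter, it was -3.76 with an adjusted p of 0.000102. With the normexp background correction it was -1.02.

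Fibrinogen beta, encoded by FGB, had 7 probes, of which 4 were well above background on no array. The probe that represents it, A_73_P252626, read -5.13, -5.41, -5.52 and -5.40 on the non-pregnant-labelled arrays and -4.28, -4.87, -4.48 and -4.30 on the pregnant-labelled ones. Means ± SD over 4 arrays were -5.36 ± 0.17 and -4.48 ± 0.27, a difference of 0.88 (SE 0.20, limma adjusted p = 0.0044). The groups did not overlap, and the difference is again close to the median of 0.77 for undetected probes. It was 0.50 with the array median subtracted (adjusted p = 0.105), 0.40 with no scaling (0.254) and 0.40 with quantile normalization (0.135). The adjoining probe A_73_110399 read -6.51, -7.04, -6.44 and -6.07 against -5.00, -7.09, -5.42 and -4.35, a difference of 1.05 that did not pass the test (SE 0.53, limma adjusted p = 0.118). Array 2 labelled pregnant was the lowest of all 8 on that probe.

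Fibrinogen alpha, encoded by FGA, had 3 probes and none was well above background on any array. Its values lay between -8.70 and -6.49 on the non-pregnant-labelled arrays and between -7.97 and -6.56 on the pregnant-labelled ones. Fibrinogen gamma was thus the chain with a detected and sizeable difference, beta had a small one that depends on the scaling, and alpha was not well above background. Setting FGG against FGB within each array removes the scaling. With dim values raised to the lowest detected signal, the FGG probe minus the FGB probe was 2.84, 2.55, 2.0 and 1.91 on the non-pregnant-labelled arrays and -2.03, -0.90, -2.16 and -2.51 on the pregnant-labelled ones. This pair was chosen after its values were seen and is given with no test.

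Antithrombin, the thrombin inhibitor encoded by SERPINC1, fell on both of its probes. The probe at the 3′ end of the gene read -0.85, -1.17, -1.75 and -1.98 on the non-pregnant-labelled arrays and -5.70, -4.83, -4.35 and -2.62 on the pregnant-labelled ones, with array 1 of the latter not well above background. Means ± SD over 4 arrays were -1.44 ± 0.52 and -4.37 ± 1.30, a difference of -2.94 (SE 0.59, limma adjusted p = 0.0025), and the pregnant-labelled arrays spread widely, with array 4 nearest the other group. With the normexp background correction the difference was -1.76, and with the mean of both probes -1.89. The 5′ probe printed above read -3.42, -3.82, -4.36 and -4.33 against -4.97, -4.98, -5.13 and -4.21. Its groups overlapped, through array 4 labelled pregnant, and its difference was -0.84 (SE 0.29, limma adjusted p = 0.0337).

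Alpha-1-antitrypsin, the elastase inhibitor encoded by SERPINA1, had 3 untested probes. The 3′ probe read -8.27, -7.59, -6.99 and -4.79 on the non-pregnant-labelled arrays and -6.40, -7.13, -6.38 and -7.43 on the pregnant-labelled ones. It was well above background on array 4 labelled non-pregnant alone, as was the middle probe, and the 5′ probe was on none. Detected signal for SERPINA1 therefore rests on 1 library.

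Alpha-2-macroglobulin, the broad protease trap encoded by A2M, fell on all 3 of its tested probes. The 3′ probe A_73_P050731 read 0.06, 0.58, 1.01 and 0.33 on the non-pregnant-labelled arrays and -1.35, -1.27, -1.58 and -2.35 on the pregnant-labelled ones. Means ± SD over 4 arrays were 0.49 ± 0.40 and -1.64 ± 0.49, a difference of -2.13 (SE 0.30, limma adjusted p = 0.000312). The probe printed above read -0.42, 0.02, -0.46 and -1.13 against -1.72, -2.44, -2.84 and -3.43, a difference of -2.11 (SE 0.38, limma adjusted p = 0.00138). Both were detected on all 8 arrays, and in neither did the groups overlap. The 5′ probe was detected only on the non-pregnant-labelled arrays and was at least 2.17-fold lower on the others. Of the 2 probes between them, 1 was well above background on no array and 1 on array 4 labelled non-pregnant alone.

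**Figure D3:**
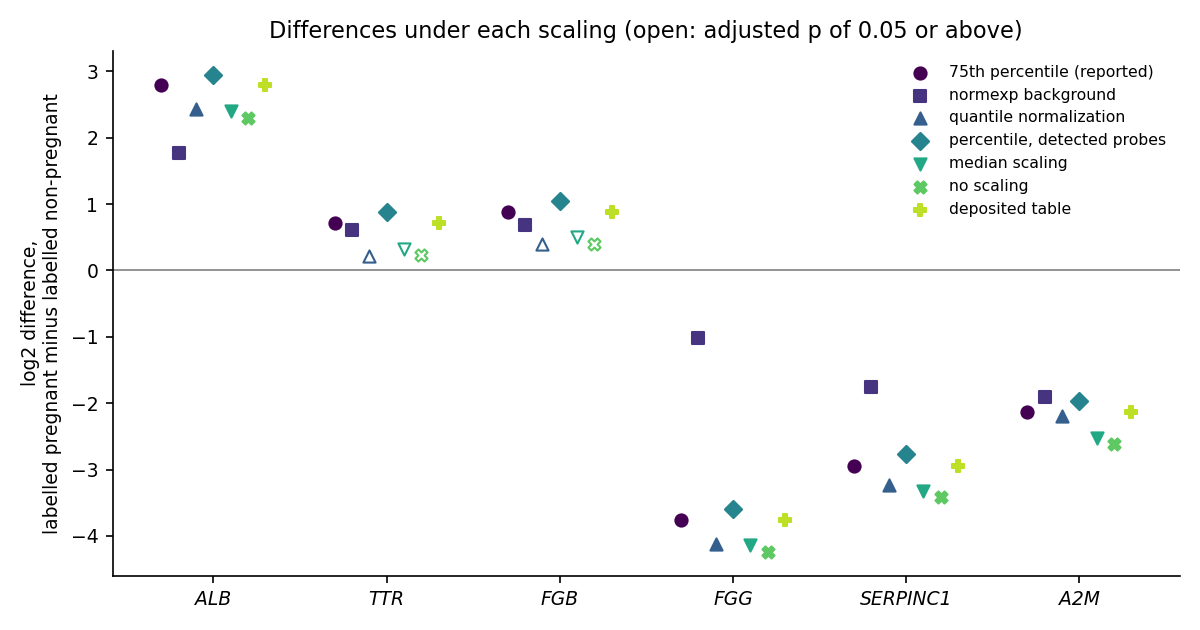
The vertical axis gives the log2 difference, pregnant-labelled minus non-pregnant-labelled arrays, for the 6 tested genes under 7 ways of correcting, scaling or reading the arrays, with open symbols where the adjusted p was 0.05 or above. ALB stays between 1.77 and 2.95 and A2M, SERPINC1 and FGG stay below 0, whereas TTR and FGB lose the call under 3 of the 7. FGG is nearest 0 with the normexp background correction, at -1.02.

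Other plasma proteins known from liver, a list of 40 of which 39 were on the array and 21 could be tested, had 12 called higher and 5 lower on the pregnant-labelled arrays and a median difference of 1.04. For this and each list below, the shares over all genes tested were 29.9% higher and 32.9% lower, with a median of -0.03, and no list was tested against them. Of all 16911 named genes, 13197 could be tested. Several dim genes below had smaller differences with the normexp background correction, which adds 50 to each signal, and a bound holds only under the reported correction. A gene detected in its brighter group alone, as each gene given a bound was, passed the detection filter only through that group. Such calls follow in part from the filter, in these lists and in those of cell markers. The counts and medians of these lists therefore support nothing by their number. The ferroxidase CP rose by 5.66 (SE 0.46, limma adjusted p = 1.13e-05), the haemoglobin-binding HP was at least 18.2-fold higher, and the plasma protein ITIH4 rose by 2.75. The HP difference of 4.88 was 1.99 with normexp, and that of ITIH4 was 1.58 with the mean of its tested probes. With no detection filter, HP was represented by another probe of higher mean signal, untested otherwise, which differed by 2.51. The antiplasmin gene SERPINF2, detected on 3 non-pregnant-labelled arrays and all the others, was higher by 3.28, but the call was lost without any of 5 arrays in turn, with differences from 2.38 to 3.43 and adjusted p-values from 0.0559 to 0.0903, and with quantile normalization (2.94, adjusted p = 0.068). With normexp it was 1.74. Apolipoprotein A1, the main protein of high-density lipoprotein, fell by 5.38 (SE 0.22, limma adjusted p = 3.57e-07), and PROS1, the cofactor of the anticoagulant protein C, fell by 4.07. APOC3, a protein of triglyceride-rich lipoproteins, and the clotting factor F12 were lower, with differences of -2.29 and -1.61, each detected on only 1 array labelled pregnant. With normexp, APOC3 differed by -0.75, and F12 by -0.09, with the call lost (adjusted p = 0.738). The remaining 18 genes on the array had no tested probe.

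Enzymes and receptors that mark hepatocytes could be tested for 10 of 23 genes on the array, with 2 higher, 3 lower and a median of -0.44. The urea cycle enzyme CPS1 had 3 probes, none well above background on any array. The mean level of the 10 tested genes was -2.59 to -1.72 on the non-pregnant-labelled arrays and -2.94 to -1.68 on the pregnant-labelled ones. TTC36 rose by 4.57 and the sterol hydroxylase CYP27A1 by 2.32, whereas the bile acid transporter SLC10A1 was at least 4.89-fold lower, HPD of tyrosine breakdown at least 6.04-fold lower, and the aminotransferase TAT fell by 1.15. With normexp, SLC10A1 differed by -0.55, with the call lost (adjusted p = 0.0836), and HPD by -0.91, both smaller than these bounds. The asialoglycoprotein receptor ASGR1 differed by -0.63 with detection on 1 pregnant-labelled array (SE 0.68, limma adjusted p = 0.447), and by -1.37 (adjusted p = 0.01) without array 4 labelled pregnant. Whether liver or yolk sac cells took part in the differences of the 10 genes was not tested.

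Of the genes known from yolk sac endoderm, 14 of 17 on the array were tested, with 3 higher, 5 lower and a median of -0.79. The parathyroid hormone receptor PTH1R rose by 3.94, the endoderm regulator SOX17 by 3.36, and MTTP, which loads lipid onto lipoproteins, by 1.53. The zinc transporter SLC39A4 was at least 14.7-fold lower, with a difference of -1.70 under normexp, the apolipoproteins APOA4 and APOM were lower by differences of -4.31 and -1.91, and the calcium-binding S100G by one of -3.84. Cubilin, encoded by CUBN, the endocytic receptor for albumin and other ligands, had no tested probe. Its partner amnionless, encoded by AMN, differed by 0.62 (SE 0.24, limma adjusted p = 0.0505), and was called under 7 of the 18 alternatives, with adjusted p-values from 0.015 to 0.0467.

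Among 14 tested regulators of liver genes, 4 were higher and 2 lower, with a median of 0.37. NR2F1, STAT3, NR5A2 and NR2F2 rose by 3.26, 2.62, 2.61 and 1.46, with NR5A2 detected on 3 non-pregnant-labelled arrays, and STAT3 is the factor through which interleukin-6 raises fibrinogen. CEBPA, an activator of albumin, fell by 2.97 (SE 0.22, limma adjusted p = 6.67e-06), and the pioneer factor FOXA1 fell by 1.77. CEBPA differed by -0.92 (adjusted p = 0.0413) with the mean of its tested probes, and with normexp FOXA1 differed by -0.95 and NR5A2 by 1.53. HNF4A, central to hepatocyte identity, differed by 0.41 (SE 0.71, limma adjusted p = 0.644), with detection on 3 arrays labelled non-pregnant and 1 labelled pregnant, and by 0.64 (adjusted p = 0.0105) with normexp. Its sign turned under other settings, to -0.21 without array 4 labelled pregnant. FOXA2, detected on 2 pregnant-labelled arrays, differed by 0.33 (SE 0.23, limma adjusted p = 0.229). It was called with normexp (0.45, adjusted p = 0.0265) and with the mean of its tested probes (1.32, adjusted p = 0.00874), and was -0.15 with quantile normalization.

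Receptors, cofactors and partners of the 10 proteins were tested for 21 of 25 genes on the array, of which 10 were higher and 3 lower, with a median of 0.62. HS3ST1, the enzyme that builds the antithrombin-binding site of heparan sulfate, rose by 5.66 with detection on 2 non-pregnant-labelled arrays, and DIO2, which activates thyroid hormone, was at least 12.8-fold higher. With normexp their differences were 3.40 and 1.69. The thyroid hormone receptor THRA rose by 3.19 and PLAT, the activator of plasmin that dissolves fibrin, by 2.76. The thyroid hormone transporter SLC16A10 fell by 7.22, and the lipoprotein receptor family member LRP8 fell by 4.34. FCGRT, the receptor that recycles albumin and immunoglobulin G, fell by 0.93 (SE 0.19, limma adjusted p = 0.00235). That call was lost with quantile normalization (-0.37, adjusted p = 0.0942) and with the mean of its tested probes (-0.52, adjusted p = 0.107), and the difference was -1.42 with no scaling.

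Among 19 tested relatives of A2M and of the serpins, 10 were higher and 5 lower, with a median of 0.99. A2ML1, the alpha-2-macroglobulin relative encoded on the same chromosome, was at least 13.7-fold higher on the pregnant-labelled arrays, opposite in direction to A2M. Within each array, the A2M probe minus the A2ML1 probe was 6.63, 8.02, 7.75 and 6.80 on the non-pregnant-labelled arrays and 2.15, 1.90, 0.80 and 0.73 on the pregnant-labelled ones, with dim values raised to the lowest detected signal. This pair too was chosen after its values were seen and has no test. The complement protein C3, a relative of A2M, rose by 7.57 and SERPINA14, the uterine serpin, by 6.69, the latter detected on 1 non-pregnant-labelled array. SERPINB9, SERPINI1 and SERPINB6 were lower, with differences of -4.61, -3.81 and -2.70, and of these SERPINI1 was detected on 3 pregnant-labelled arrays. With normexp the differences were 1.73 for A2ML1, 4.04 for SERPINA14 and -2.18 for SERPINI1.

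Proteases that these inhibitors meet were called higher for 10 of 14 tested genes and lower for 1, with a median of 2.01. ADAMTS5 rose by 5.56, the membrane and secreted matrix metalloproteases MMP14 and MMP2 by 3.20 and 3.11, and neutrophil elastase, encoded by ELANE, by 2.87. MMP14 was detected on 1 non-pregnant-labelled array and differed by 1.51 with normexp. ADAMTS1 fell by 0.83, a call lost with quantile normalization (-0.48, adjusted p = 0.0979) and with the mean of its tested probes (-0.36, adjusted p = 0.444). With no scaling it was -1.32.

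Acute phase signalling gave 11 higher and 5 lower among 21 tested genes, with a median of 0.69. Interleukin-6, the cytokine that raises fibrinogen in liver, was at least 17.1-fold lower on the pregnant-labelled arrays, and LIFR and PTX3 were lower, with differences of -4.26 and -3.96, PTX3 being detected on 3 pregnant-labelled arrays. The iron hormone gene HAMP was at least 7.91-fold lower. The oncostatin receptor OSMR was at least 12.5-fold higher, and TNF, detected on 1 array labelled non-pregnant and all 4 of the others, rose by 4.48. With normexp the differences were -1.97 for IL6, -0.86 for HAMP, 1.8 for OSMR and 2.55 for TNF. The amyloid SAA3 rose by 4.35 (limma adjusted p = 0.0251), a call lost without array 2 or 3 labelled pregnant or array 3 labelled non-pregnant (adjusted p = 0.0639, 0.0636 and 0.0554). Over the union of these 8 lists, 119 of 171 genes on the array were tested, 53 were higher and 29 lower, with a median of 0.51.

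**Figure D4:**
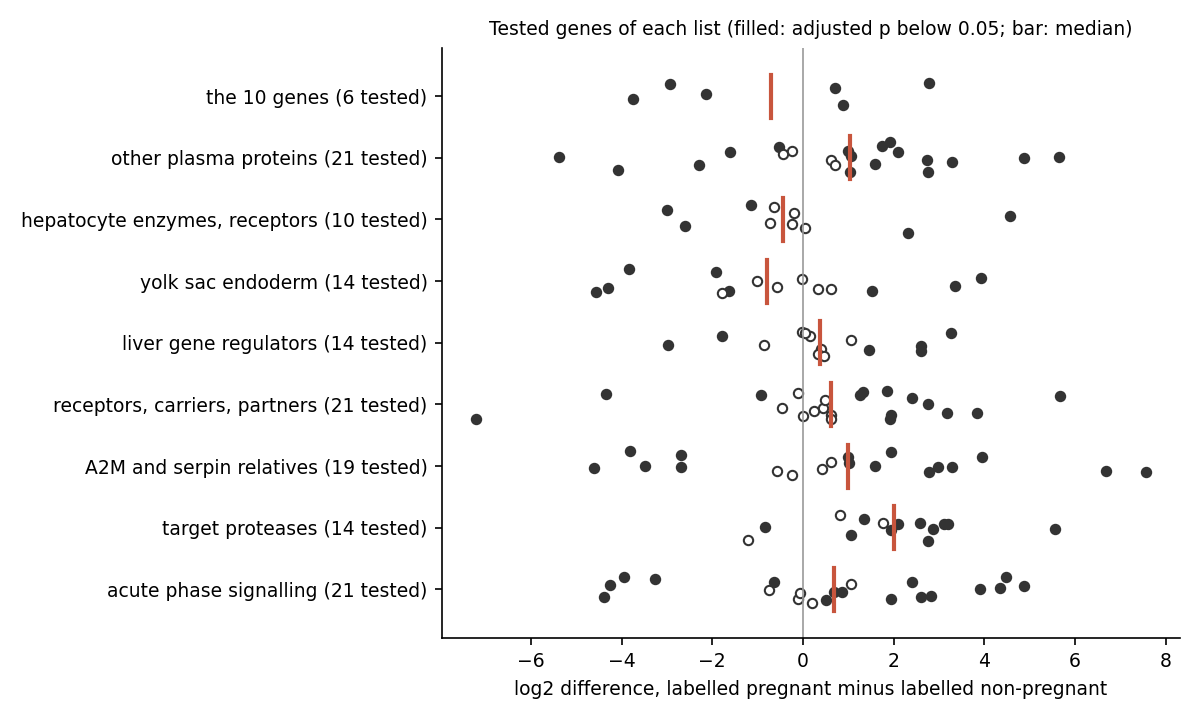
Each point is a tested gene placed by its log2 difference, pregnant-labelled minus non-pregnant-labelled arrays, with filled points for adjusted p under 0.05 and a bar at the list's median. The 10 genes have 6 tested, split into 3 above and 3 below 0, and the protease list has the median furthest above 0, at 2.01.

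Genes that lie near the 10 on the genome moved in both directions, and only some of them are named here. Among all genes tested, 29.9% were called higher and 32.9% lower, and the neighbours were not tested against these shares. On chromosome 6, RASSF6, whose probe lies 93896 bases beyond the AFP probes, fell by 4.67 while ALB rose. On chromosome 17, the fibrinogen genes lie between LRAT, which makes retinyl esters and rose by 6.39 with detection on 1 non-pregnant-labelled array, and the splicing gene PLRG1, which fell by 1.26. On chromosome 21, SERPINA14, 85418 bases from SERPINA1, rose. On chromosome 16, CENPL beside SERPINC1 was lower, with a difference of -0.88, whereas ZBTB37 rose by 0.75 and KLHL20 by 0.50. On chromosome 5, PHC1, A2ML1 and RIMKLB rose beside A2M, whereas M6PR differed by -0.14 (SE 0.19, limma adjusted p = 0.53). On chromosome 1, DNAJB11, a chaperone gene beside AHSG, fell by 2.99. The probe of DSG2 beside TTR on chromosome 24 differed by -0.71 (SE 0.50, limma adjusted p = 0.242).

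The 10 genes were measured in samples whose other cell markers moved as well. Stromal, smooth muscle and leukocyte markers were higher for 5 of 8, 5 of 7 and 5 of 7 tested genes and lower for none. Macrophage markers were higher for 6 of 10 and lower for 2, and endothelial markers higher for 2 of 8 and lower for 1, with VWF at 5.82. CD163, a macrophage marker detected on 3 pregnant-labelled arrays, differed by 0.76 (SE 0.69, limma adjusted p = 0.369), and by 1.56 (adjusted p = 0.000557) without array 4 labelled pregnant. The mean level of the leukocyte markers was -4.42 to -4.02 on the non-pregnant-labelled arrays and -0.20 to 1.73 on the pregnant-labelled ones, and that of the erythroid markers 0.53 to 1.55 and -5.32 to -4.82. The part of these cells in the differences of the 10 genes was not tested.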

How the data were processed

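Total RNA of 8 samples, isolated on silica columns and treated with DNase, was primed with oligo-dT, amplified and labelled with Cy3 per the labels' protocols. The deposited spot intensity values come from Agilent Feature Extraction 11.5.1.1 per the file headers, with background subtracted and no scaling between arrays. A log2 table, which the authors deposited too, was used as an alternative. Its scale was read from its agreement with the spot intensities, and its 75th percentile is near 0 on each array. Flags of 0 or 1 per spot, deposited with the intensities, give whether it was well above background.

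Here log2 of the processed intensity minus the array's 75th percentile was used. The 1319 control spots and 119 outlier spots were left out, no spot was saturated, and spots of 1 probe were averaged. Genes were named by accession and symbol through a table of cattle RefSeq genes (assembly ARS-UCD2.0, names only), which matched 28112 probes by the accession, 1770 by another accession, 5523 by symbol and 149 by synonym, and left the file's own name for 15728. Probes detected (well above background) on 4 or more of 8 arrays were fitted by lmFit and eBayes of limma 3.58.1, run in R 4.3.3, without covariates. P-values were adjusted by Benjamini-Hochberg over all 34627 of them, with a threshold of 0.05. A gene is represented by its tested probe of highest mean signal. For a bound (at least N-fold), each dim array was given the higher of the probe's own signal and the lowest detected signal, and the mean of these was set against that of the bright arrays. Where some bright arrays lacked the flag, as for probes of ALB and AFP, the fold is no bound and is given without at least. The number of arrays, 4 a group, limits the precision.

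All 10 genes are given, and from each other list the 4 genes of largest difference called higher and the 4 called lower, with HNF4A, FOXA2, IL6, LRP1, FCGRT, CPS1, ASGR1, CUBN and AMN whatever their value and a defining gene of each marker list. LRP1 was not matched to a probe, and a few genes that the rule names are not reported here. The genes, lists and tests were chosen with earlier results of these data known. Some of the genes beside the 10, within 250000 bases on the build of the files, were added to the named ones. Alternatives covered background correction, scaling, detection filter, deposited table, probe choice, replicate block and leaving out each array. A slide or scan block could not be fitted, since there was 1 of each. Replicate numbers did not pair the arrays: the deviations of equal numbers correlated at 0.01, 0.08, 0.05 and 0.15.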

Additional observations from a re-analysis of the deposited data

Results flagged for a closer look

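Single arrays stood apart from the other 3 of their label in 14 of the 112 sets of values examined for the named genes, by Dixon's test, which flags about 1 in 20 by chance. None of them concerned a probe of the 10 plasma protein genes. Array 4 labelled pregnant accounted for 10 of the 14, array 4 labelled non-pregnant for 3 and array 2 labelled non-pregnant for 1. Values are log2 relative to the array's 75th percentile.

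Array 4 labelled pregnant was above the other 3 for 5 genes. CYP27A1 read 5.34, with 3.90 to 4.08 on the others. MTTP read 1.32, with 0.42 to 0.55 on the others. S100G read 5.52, with 1.83 to 2.38 on the others. SERPINB6 read 2.66, with 1.64 to 1.70 on the others. SERPINB9 read 2.06, with -0.25 to 0.14 on the others. It was below them for 5 genes. MMP2 read 4.30, with 5.46 to 5.61 on the others. NR2F1 read 4.38, with 5.34 to 5.41 on the others. NR5A2 read -4.30, with -2.68 to -2.50 on the others. PGR read 0.22, with 2.19 to 2.49 on the others. THRA read 2.92, with 3.80 to 3.96 on the others.

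On array 2 labelled non-pregnant, APOA4 read -0.62, below the -0.19 to -0.13 of its group. On array 4 labelled non-pregnant, CP read -6.08, below the -4.73 to -4.55 of its group. On array 4 labelled non-pregnant, ELANE read -4.55, below the -3.87 to -3.75 of its group. On array 4 labelled non-pregnant, HAMP read -3.81, below the -3.10 to -2.99 of its group.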

How the results depend on the processing

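The 6 tested plasma protein genes kept the sign of their difference under each of the 18 alternatives that tested them, and ALB, A2M and SERPINC1 kept their call wherever they were tested. FGG did too, but its probe passes the detection filter through its brighter group, so this says little of stability, and only the fit with no filter (adjusted p = 0.000102) is free of it. Ranges were 1.77 to 2.95 for ALB, -2.62 to -1.89 for A2M, -3.52 to -1.76 for SERPINC1, -4.24 to -1.02 for FGG, 0.40 to 1.05 for FGB and 0.21 to 0.88 for TTR. The number of these genes called higher on the arrays labelled pregnant was 3 and became 1 with median scaling, with no scaling and with quantile normalization. The number called lower was 3 and became 1 when a probe had to be well above background on all 8 arrays, since FGG and SERPINC1 then had no probe tested. Over all genes, between 6912 (strict filter, 11122 genes tested) and 9740 (no filter, 16911 tested) were called, against 8282. Of those called, 47.6% were higher on the arrays labelled pregnant, against 34.9% with median scaling and 31.7% with no scaling, where the median difference over all genes was -0.41 and -0.51 instead of -0.03. It was 0.14 with the percentile of detected probes and 0.23 with no filter. Among other genes, normexp ended the calls of F12 and SLC10A1, quantile normalization those of FCGRT, ADAMTS1 and SERPINF2, and the mean of tested probes those of FCGRT and ADAMTS1. FOXA2 gained a call with normexp (0.45) and with the mean of its probes (1.32), and HNF4A with normexp (0.64). Signs turned for 3 genes that were not called: ASGR1 was 0.21 with normexp, FOXA2 was -0.05, -0.15 and -0.15 with median, no and quantile scaling, and HNF4A was -0.08 with no scaling, -0.09 with quantile normalization, and from -0.21 to 0.82 when 1 array was left out, with -0.21 without array 4 labelled pregnant and -0.12 without array 3 labelled non-pregnant. With the replicate number as a block, 8047 genes were called. Signal over background limits AFP, AHSG, FGA and SERPINA1, which had no tested probe.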
